A study of Homo sapiens with 7 samples.

Results

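The annexins and their S100 partners in these data are 10 genes, of 19775 listed, chosen by their symbols from an earlier look at the levels of these same 7 samples: the annexins ANXA1, ANXA2, ANXA3, ANXA4, ANXA5, ANXA6, ANXA7 and ANXA11, and the S100 genes S100A10 and S100A11. The study measured poly(A) RNA by paired-end sequencing in H1, an established wild-type human embryonic stem cell line, with or without XMD892, a kinase inhibitor that the title ties to ERK5. The groups were XMD892 at 1 µM for 12 h (n = 1), for 24 h (n = 2) and for 48 h (n = 2), and cells left in E8 without the inhibitor for 48 h (n = 2). All groups were kept in E8, a defined medium based on DMEM/F12 with insulin, transferrin, selenite, ascorbate and the growth factors FGF2 and TGFβ. The table also holds 2 columns whose names give XMD and 12 h but that match none of the 7 samples; they were not used, so each 12 h value is from 1 library. The E8 cells were collected at 48 h only, so hours in culture and hours of inhibitor cannot be told apart at 12 and 24 h. Whether replicates came from separate cultures is not stated, so standard errors and p-values cover only the spread between these samples, and the same E8 libraries serve every comparison with E8. In such bulk RNA, fewer cells of a type and less RNA per cell cannot be told apart.

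Annexins are cytosolic proteins whose conserved repeats bind phospholipid membranes when calcium rises. They take part in membrane repair, endocytosis, exocytosis and the linkage of membranes to the actin cytoskeleton. S100 proteins are small EF-hand dimers that dock onto the amino-terminal tails of certain annexins: S100A10 binds ANXA2 in a heterotetramer that can hold plasminogen at the cell surface, and S100A11 is a partner of ANXA1.

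The starts of 4 genes are shown because they had the largest log2 fold changes of the 10 at 12 h. The windows run from 250 bases before to 50 after a RefSeq transcript start on GRCh38.p14, 5′ to 3′ on the gene's strand, and all 10 members matched the RefSeq table. They lie at chr9:73151615-73151914 (ANXA1, plus strand), chr15:60397937-60398236 (ANXA2, minus strand), chr4:78551520-78551819 (ANXA3, plus strand) and chr1:151993810-151994109 (S100A10, minus strand). Capitals mark matches on either strand to 5 motifs: the AP-1 site TGANTCA, the TEAD site GGAATG, the TATA box TATAAA, the GC box GGGCGG and the serum response CArG box.
ANXA1: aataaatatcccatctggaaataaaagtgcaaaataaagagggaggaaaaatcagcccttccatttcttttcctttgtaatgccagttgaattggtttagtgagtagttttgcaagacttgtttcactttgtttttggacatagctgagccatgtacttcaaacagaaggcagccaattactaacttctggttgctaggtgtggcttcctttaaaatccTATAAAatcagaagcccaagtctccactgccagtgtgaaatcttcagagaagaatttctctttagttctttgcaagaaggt
ANXA2: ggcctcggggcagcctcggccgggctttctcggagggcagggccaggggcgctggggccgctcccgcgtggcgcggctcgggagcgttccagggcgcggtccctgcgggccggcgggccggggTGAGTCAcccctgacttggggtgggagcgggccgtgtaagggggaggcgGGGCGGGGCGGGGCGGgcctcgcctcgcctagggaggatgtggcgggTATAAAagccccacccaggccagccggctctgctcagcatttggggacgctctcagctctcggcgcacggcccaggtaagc
ANXA3: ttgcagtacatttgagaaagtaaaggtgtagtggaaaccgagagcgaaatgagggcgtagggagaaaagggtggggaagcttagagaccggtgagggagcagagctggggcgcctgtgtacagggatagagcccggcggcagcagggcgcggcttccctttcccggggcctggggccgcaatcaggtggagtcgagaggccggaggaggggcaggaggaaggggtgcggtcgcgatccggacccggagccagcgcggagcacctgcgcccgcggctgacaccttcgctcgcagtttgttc
S100A10: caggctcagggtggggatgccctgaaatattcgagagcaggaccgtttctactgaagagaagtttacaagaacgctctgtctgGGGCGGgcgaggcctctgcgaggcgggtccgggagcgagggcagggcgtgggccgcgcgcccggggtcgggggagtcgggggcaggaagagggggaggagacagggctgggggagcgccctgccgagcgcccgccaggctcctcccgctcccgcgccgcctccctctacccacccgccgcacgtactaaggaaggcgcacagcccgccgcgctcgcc
The ANXA1 window held 1 TATA box match, with its first base at position -31 from the start, and no other match. The ANXA2 window held a TATA box match at the same position, 1 AP-1 match at position -127 and 3 overlapping GC box matches, the first at position -78. The S100A10 window held 1 GC box match at position -167, and the ANXA3 window held none of the 5 motifs. Of 35097 RefSeq windows of this length, 7.71% held the AP-1 motif, 14% the TEAD motif, 11.5% the TATA motif, 44.9% the GC box and 1.29% the CArG box. The base composition also differed among the windows, with 37.7% G and C for ANXA1, 76% for ANXA2, 64.7% for ANXA3 and 71.7% for S100A10, against a median of 58.7% over all windows. Among the windows of the other members, only that of ANXA7 held a CArG box match (position -229), and none of the windows of the 10 members held the TEAD motif.

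The 7 libraries carried 18528689 to 24148186 reads in listed genes. On the first principal component (41.2% of the variance), E8 lay at -56.8 and -38.51. The 12 h library lay there at 17.2, within the range of the other XMD892 libraries (14.04 to 27.03). On the second (20.6%), the XMD892 libraries lay in order of time, at 38.6 for 12 h, 7.24 and 9.30 for 24 h, and -30.9 and -26.04 for 48 h. The E8 libraries lay at 5.75 and -3.99 on the second. The summed count of 8 pluripotency markers, all above 0, was 177210 to 195850 under XMD892 and 174210 to 205280 in E8. The listed trophoblast and amnion markers (5 of 10 analysed) summed to 455 and 503 in E8, 160.0 at 12 h, 146 and 153 at 24 h, then 182 and 238 at 48 h. The listed mesoderm markers (5 of 7 analysed, none at 0) summed to 346 and 340.4 in E8, 95.5 at 12 h, 137 and 141 at 24 h, then 132 and 123 at 48 h. The fibroblast and stroma markers (5 of 8 analysed, none at 0) summed to between 6874 and 8597 under XMD892 and to 6900 and 8146 in E8. Most of that sum was THY1 (3970 to 6093 under XMD892 and 4966 and 5811 in E8). Definitive endoderm markers (2 of 6 analysed) summed to 29.2 to 58.9 under XMD892 and 48.8 to 57.6 in E8, and neuroectoderm markers (3 of 5 analysed) to 1986 to 2605 under XMD892 and 2575 to 2809 in E8, most of it ZIC1 (1936 to 2557 under XMD892 and 2539 and 2758 in E8). The only markers at 0 in any library were TFAP2A (trophoblast and amnion) and LHX2 (neuroectoderm) in the first 48 h library and GATA4 (endoderm) in the first 24 h library. Surface epithelium markers (0 of 5) were not analysed here. The part of other cell types in the values below was not tested.

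All 10 members averaged at least 10 over the 7 libraries and so entered the fit. The values are normalised read counts, that is, reads divided by 1 factor per library. The members were picked with these values known, so their changes are described without a p, and "called" says only that the fit over all 16351 tested genes (limma on log2 of the count plus 1) placed the gene under an adjusted p of 0.05. At 12 h, 5 of 10 members were called, all higher, where 7.46% of all tested genes were called. At 24 h, 2 were called, 1 higher and 1 lower, where 16.2% of all tested genes were called. At 48 h, 3 were called, all lower, where 11.5% of all tested genes were called. These shares of all genes are background only, because the same comparisons guided the choice of members. The median log2 fold change over E8 of the 10 members was 0.64 at 12 h, 0.15 at 24 h and -0.17 at 48 h, while the median of all tested genes lay at 0.02, 0.01 and 0.02. The highest group mean was the 12 h library's in 8 of 10 members, against 26.5% of all tested genes, which is 4340 genes. The exceptions were ANXA6, highest at 48 h, and ANXA11, highest in E8. The summed count of the 10 members was 15220 and 15550 in E8, 23690 at 12 h, 18250 and 18180 at 24 h, then 16840 and 15430 at 48 h.

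**Figure D1:**
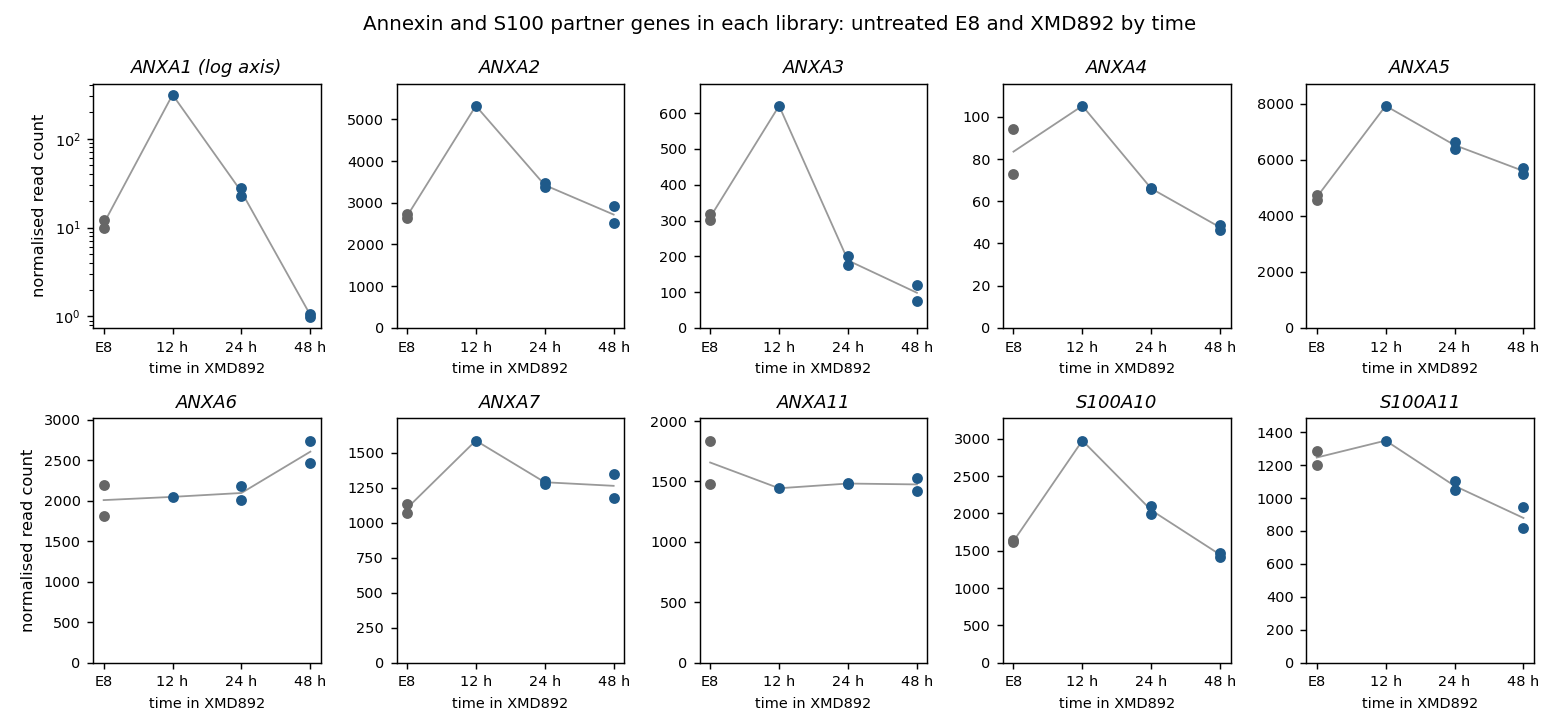
Normalised read count (vertical axis, linear except for ANXA1, which has a log axis) of each member in the 2 E8 libraries, harvested at 48 h without inhibitor (grey), and in the libraries of 12, 24 and 48 h of XMD892 (blue). Points are libraries and lines join group means (the 12 h group is 1 library): 8 of 10 members are highest at 12 h. In ANXA1, ANXA3, ANXA4, S100A10 and S100A11 both 48 h libraries lie below both E8 libraries.

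ANXA1 had the widest range of the members. It encodes annexin A1, which binds S100A11 and is known for restraining inflammation through formyl peptide receptors. Its normalised count was 12.2 and 9.92 in E8, 312 at 12 h, 28.1 and 22.4 at 24 h, then 1.08 and 0.992 at 48 h. Thus the 12 h library was high, the 24 h libraries lay above both E8 libraries, and each 48 h library held a single read. In reads, E8 held 26 over both libraries, 12 h held 291, 24 h held 51 and 48 h held 2. The ratio of 12 h to E8, from summed reads and the library factors, was 28.3 (95% interval 18.9 to 44.1), and that of 24 h to E8 was 2.28 (1.39 to 3.80). At 48 h the ratio to E8 was 0.0937 (0.0108 to 0.374), which is 10.7 times lower with an interval of 2.67 to 92.8. These intervals are exact binomial ones and cover counting error only. On the log2 scale with 1 added, the difference from E8 was 4.71 ± 0.63 (SE) at 12 h and -2.56 ± 0.51 at 48 h, both called, and 1.12 ± 0.51 at 24 h, not called. With few reads at 48 h that size depends on the added count: it was -1.41 with 5 added and -3.43 from DESeq2 on reads, and the call was lost in a fit of the 48 h and E8 libraries alone. ANXA1 was also lower and called at 24 h against 12 h (-3.58 ± 0.63) and at 48 h against 24 h (-3.68 ± 0.51). The gene lies on GRCh38 at chr9:73151757-73170393, plus strand.

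S100A11, the partner of ANXA1, had a narrower range. Its count was 1289 and 1204 in E8, 1349 at 12 h, 1047 and 1102 at 24 h, then 943 and 815 at 48 h. All later libraries lay below both E8 libraries and the 12 h library lay just above them. The log2 fold change over E8 was 0.12 ± 0.19 at 12 h, -0.21 ± 0.15 at 24 h and -0.51 ± 0.15 at 48 h, and only the last was called. That call was lost without either 48 h library, where the value was -0.61 without the first and -0.40 without the second, and also without either 24 h library, with replicate number as a block or in a fit of 48 h and E8 alone. When genes were ranked by how closely their profile over the 7 libraries followed that of ANXA1, S100A11 stood at rank 376 of 11366. The closest were TAGLN, an actin-binding protein of smooth muscle, TNC, an extracellular matrix glycoprotein, and SPP1, osteopontin, with root mean square differences of 1.17, 1.20 and 1.21 log2 units. That of S100A11 was 2.13. The measure counts the size of changes as well as their course, and ANXA1 had the widest range of the members, so the rank does not compare course alone. S100A11 lies at chr1:152032506-152047907, minus strand.

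ANXA2 and S100A10 followed one another closely. ANXA2, the membrane- and actin-binding heavy chain of the heterotetramer, had 2721 and 2625 normalised counts in E8, 5322 at 12 h, 3466 and 3380 at 24 h, then 2915 and 2517 at 48 h. Its light chain S100A10 had 1611 and 1645 in E8, 2976 at 12 h, 1986 and 2099 at 24 h, then 1473 and 1419 at 48 h. Both were highest at 12 h and still above both E8 libraries at 24 h, whereas at 48 h ANXA2 overlapped E8 and S100A10 lay below it. The log2 fold change over E8 of ANXA2 was 0.99 ± 0.17 at 12 h (called), 0.36 ± 0.14 at 24 h and 0.02 ± 0.14 at 48 h (95% interval -0.27 to 0.31). That of S100A10 was 0.87 ± 0.17 at 12 h (called), 0.33 ± 0.14 at 24 h and -0.17 ± 0.14 at 48 h (95% interval -0.47 to 0.12). In normalised counts, S100A10 stood to ANXA2 as 0.592 and 0.627 in E8, 0.559 at 12 h, 0.573 and 0.621 at 24 h, then 0.505 and 0.564 at 48 h. The ratio in the 12 h library lay below both E8 ratios, and its lowest value was in a 48 h library. In a fit of 12 h and E8 alone, the call of S100A10 was lost and that of ANXA2 was not.

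Among 11365 genes with a mean count of 100 or more, S100A10 had the second smallest root mean square difference from ANXA2 over the 7 libraries, 0.0975 log2 units. The smallest, 0.0959, was that of HSPA8, the constitutive heat shock cognate chaperone, and the third, 0.101, that of ACHE, acetylcholinesterase. HSPA8 had 65813 normalised counts at 12 h, against 41951 and 37525 in E8, and ACHE 166 against 83.8 and 90.9. Neither is an annexin or an S100 gene. Both were picked for following the ANXA2 profile, so their 12 h peak follows from that choice. ANXA2 lies at chr15:60347134-60402883 and S100A10 at chr1:151982915-151994390, both on the minus strand. The processed pseudogene ANXA2P2 had 5.24 and 7.44 normalised counts in E8, 19.3 at 12 h, 14.6 and 12.2 at 24 h, then 4.32 and 7.93 at 48 h, and how shared reads were split is not given in the sources used here.

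**Figure D2:**
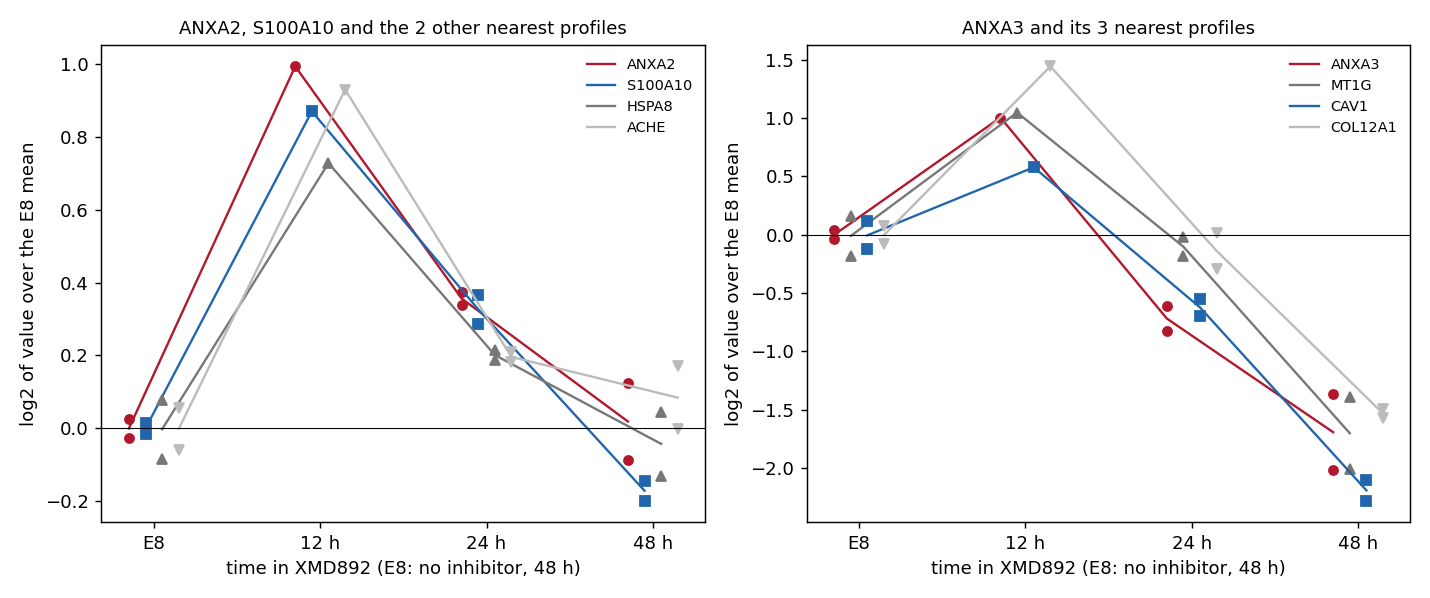
Log2 of the normalised read count over the E8 mean for ANXA2, S100A10 and the other nearest profiles HSPA8 and ACHE (left) and for ANXA3 with its nearest profiles MT1G, CAV1 and COL12A1 (right). Points are libraries in E8 (48 h without inhibitor) and after 12, 24 and 48 h of XMD892, lines join group means, and all 8 profiles are highest at 12 h, while only those on the right lie well below E8 at 48 h. The nearest profiles were picked for likeness over these same libraries, so the course they share follows from that choice.

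ANXA3 joined the rise at 12 h but then fell below E8. Its protein, annexin A3, is a phospholipid-binding member that is abundant in neutrophil granules. The counts were 318 and 301 in E8, 620.5 at 12 h, 202 and 175 at 24 h, then 119.9 and 76.4 at 48 h. The groups did not overlap at any step, with 12 h above E8 and both later times below it. The log2 fold change over E8 was 1.00 ± 0.26 at 12 h, -0.71 ± 0.22 at 24 h and -1.68 ± 0.22 at 48 h, all called. The value at 48 h stayed called under every alternative run, between -2.00 and -1.36. The call at 24 h was lost without the first E8 library (-0.68), without the second 24 h library (-0.61) or with the trend along GC content removed (-0.55). From 24 h on, the decline continued, with -0.97 ± 0.22 at 48 h against 24 h, a call that was lost without the first 24 h library (-0.86) or the second 48 h library (-0.64). Between 24 h and 12 h the difference was -1.72 ± 0.26, also called. In the 48 h against 24 h comparison 2 of 10 members were called, ANXA1 and ANXA3, both lower, where 1.2% of all tested genes were called. In the 24 h against 12 h comparison the same pair was called, 2 of 10 and both lower, where 0.391% of all tested genes were called.

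The genes closest to ANXA3 in profile were looked up after its values were seen. They were MT1G, a metallothionein that binds zinc and copper, at 0.287 log2 units, CAV1, the caveolar coat protein caveolin-1, at 0.293, and COL12A1, a fibril-associated collagen, at 0.313. ANXA2 stood at rank 320 by this measure, with 0.738. ANXA3 lies at chr4:78551519-78610451, plus strand.

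ANXA5 gave the highest counts of the 10 and stayed above E8 at every time. Its protein, annexin A5, binds exposed phosphatidylserine and is the familiar stain for apoptotic cells. The counts were 4756 and 4582 in E8, 7931 at 12 h, 6656 and 6401 at 24 h, then 5719 and 5486 at 48 h. Every library under XMD892 lay above both E8 libraries, by less at each later time. The log2 fold change over E8 was 0.76 ± 0.17 at 12 h and 0.48 ± 0.14 at 24 h, both called, and 0.26 ± 0.14 at 48 h, not called (95% interval -0.02 to 0.55). The 24 h call was lost without either 24 h library, where the values were 0.46 and 0.51, and the 12 h call in a fit of 12 h and E8 alone. The gene lies at chr4:121667955-121697113, minus strand.

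ANXA4, ANXA6, ANXA7 and ANXA11 were called in no comparison. ANXA4, a membrane-aggregating annexin of epithelia, had 94.3 and 72.7 in E8, 105 at 12 h, 65.6 and 66.4 at 24 h, then 48.6 and 46.6 at 48 h. Both 48 h libraries lay below both E8 libraries, with a log2 fold change of -0.79 ± 0.27. ANXA6, the annexin with a duplicated core, had 1813 and 2199 in E8, 2046 at 12 h, 2009.8 and 2178 at 24 h, then 2741 and 2468 at 48 h. It was the 1 member whose 48 h libraries were its highest, at 0.38 ± 0.15 over E8, while its 12 h library lay between the E8 libraries. ANXA7, a GTP-binding annexin of secretory granules also called synexin, had 1135 and 1069 in E8, 1585 at 12 h, 1299.6 and 1277 at 24 h, then 1349 and 1176 at 48 h. All its XMD892 libraries lay above E8, most at 12 h with 0.52 ± 0.18. ANXA11, which tethers RNA granules to lysosomes in neurons, had 1476 and 1838 in E8, 1444 at 12 h, 1486 and 1480.0 at 24 h, then 1528 and 1423 at 48 h. Its log2 fold changes over E8 lay between -0.19 and -0.15 and its 24 and 48 h libraries overlapped E8. Between the E8 libraries, differences followed transcript GC content (Spearman rho -0.635 across genes). With that trend removed ANXA4, ANXA5 and ANXA6 were also called at 48 h, where 20.3% of all tested genes were called, against 11.5% without removal. ANXA7 shares 105 exon bases with an antisense gene, AL512656.1, and the strand setting of the counting is not given in the sources used here. On GRCh38 these genes lie at chr2:69644425-69827100 (ANXA4, plus), chr5:151100712-151157882 (ANXA6, minus), chr10:73375101-73414076 (ANXA7, minus) and chr10:80150889-80205572 (ANXA11, minus).

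**Figure D3:**
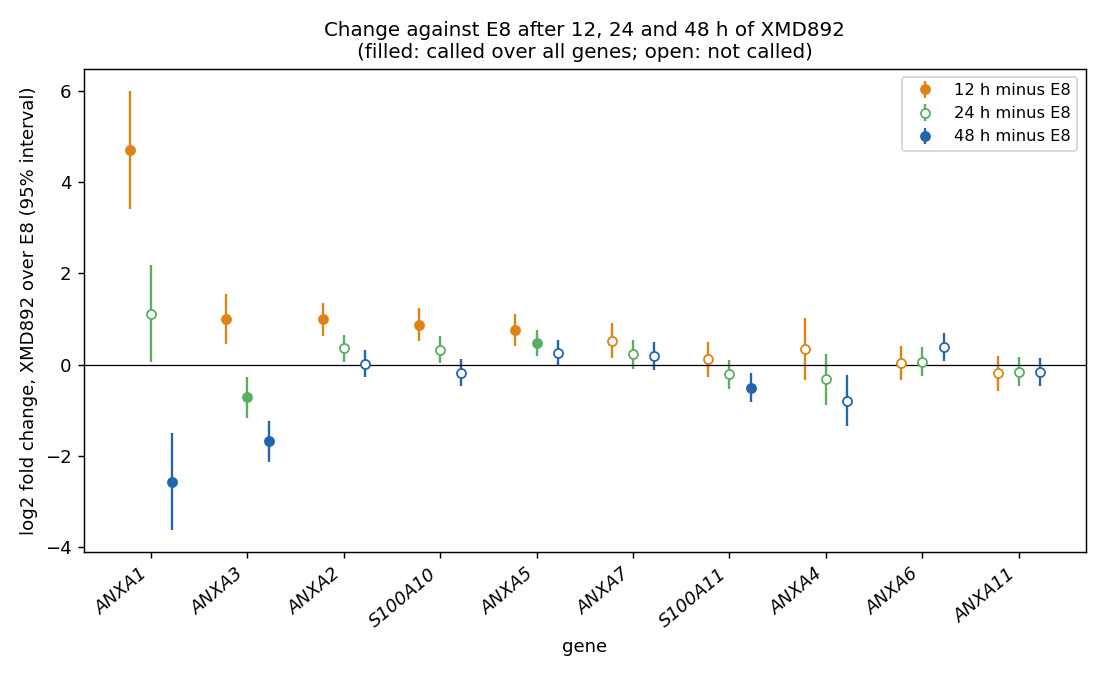
Log2 fold change of XMD892 over E8 (vertical axis, on log2 of the normalised count plus 1) for each member after 12, 24 and 48 h, with 95% intervals from the limma fit over 7 libraries. Filled points were called over all tested genes and open points were not: 5 are filled at 12 h, all above 0, and 3 at 48 h, all below 0.

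Levels were compared between genes as normalised counts per kb of the median length of the basic coding transcripts in GENCODE 29. In E8 the order was ANXA5 (3425 per kb), S100A11 (2098), ANXA2 (1851), S100A10 (1791), ANXA6 (945), ANXA7 (449), ANXA11 (358), ANXA3 (203), ANXA4 (39.6) and ANXA1 (5.95). No neighbours in this order overlapped between the E8 libraries, though ANXA2 (1818 to 1885) and S100A10 (1772 to 1810) nearly met. At 12 h ANXA5 had 5819 per kb, ANXA2 3686, S100A10 3274 and S100A11 2272. By this length, both chains of the ANXA2 heterotetramer stood above S100A11 in that library. At 48 h ANXA5 led with 4111 ± 121 per kb (SD, n = 2), ANXA2 followed with 1881 ± 195, and S100A10 (1561 to 1620 per kb) overlapped S100A11 (1372 to 1587 per kb). ANXA1 stood at 168 per kb at 12 h, above ANXA4 at 49.9 per kb, but was the lowest of the 10 in every other group. The order rests on the length used: per kb of all merged exons, S100A11 stood at rank 1 and ANXA2 at rank 6 in E8. By that length the 12 h order was reversed, with S100A11 (1984 per kb) above S100A10 (1928.5) and ANXA2 (603). At 48 h ANXA2 again stood at rank 6.

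Other genes of annexin and S100 biology were taken from 7 lists of 70 genes, drawn up with earlier results of these data known, of which 50 were tested. Adjusted p-values below are limma's, Benjamini-Hochberg adjusted over all 16351 tested genes. The lists were drawn up, and genes from them named, with these same data. Their p-values therefore only place the genes among all tested genes and are not independent support. At 12 h 5 of the 50 rose and 1 fell, at 24 h 5 rose and 5 fell, and at 48 h 3 rose and 6 fell. That is 12%, 20% and 18% called, beside the 7.46%, 16.2% and 11.5% of all genes given above. The median log2 fold change over E8 of the 50 was 0.11, 0.02 and 0.02, against 0.02, 0.01 and 0.02 over all genes. Of other annexins only ANXA9 was tested, and it was not called at any time. Its counts were 62.0 and 72.7 in E8, 52.6 at 12 h, 58.3 and 56.1 at 24 h, then 67.0 and 56.5 at 48 h.

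Among proteins that bind annexins or act in membrane repair, 13 were tested. Of these, 3 rose and none fell at 12 h, 1 rose and 3 fell at 24 h, and none rose and 4 fell at 48 h. The shares called were 23.1%, 30.8% and 30.8%, beside 7.46%, 16.2% and 11.5% of all tested genes. The medians of the 13 log2 fold changes over E8 were 0.24, -0.11 and -0.22. CAV1, which shapes caveolae, had 573 and 486 in E8, 790.1 at 12 h, 361 and 326 at 24 h, then 123 and 109 at 48 h. It was highest at 12 h at 0.58 over E8 without passing the test (adjusted p = 0.11) and fell to -0.62 at 24 h (adjusted p = 0.023) and -2.18 ± 0.18 at 48 h (adjusted p = 5.7e-08). Every 48 h library lay below every other library.

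MYOF, the ferlin myoferlin that acts in membrane fusion and repair, had 20.1 and 17.4 in E8, 190.0 at 12 h, 33.3 and 36.5 at 24 h, then 7.56 and 2.98 at 48 h. It was higher at 12 h (3.28 ± 0.54) and fell at 48 h (-1.75 ± 0.44, adjusted p = 0.013). MYOF met the mean of 50 needed to be named only in the 12 h library. Its high value there is thus a description and no support. The 48 h libraries held 10 reads in all, against 44 in E8, a ratio of 0.277 (95% counting interval 0.124 to 0.558). AHNAK, a giant scaffold that binds the ANXA2 heterotetramer, had 915 and 830.4 in E8, 1172 at 12 h, 457 and 499 at 24 h, then 445 and 342 at 48 h. AHNAK was not called at 12 h (0.43, adjusted p = 0.23) and fell by 0.87 at 24 h (adjusted p = 0.0017) and by 1.16 at 48 h (adjusted p = 9.2e-05). The remaining calls, named after their values were seen, were CAVIN1 (higher at 12 h by 1.56 and at 24 h by 0.86), CAPN2 (higher at 12 h by 0.66) and DYSF (lower, -1.05 at 24 h and -0.69 at 48 h). The fall of MYOF at 48 h was not called without the second 48 h library (-1.20) or the first E8 library (-1.65, or -1.64 with GC removal). The MYOF call was also lost in a limma fit of 48 h and E8 alone (-1.75, adjusted p = 0.057). The fall of CAV1 at 24 h was not called without the first E8 library (-0.50, or -0.43 with GC removal) or the first (-0.69) or second (-0.54) 24 h library.

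Of 7 genes of plasminogen activation at the cell surface, 1 rose and none fell at 12 h and at 24 h, and 1 fell and none rose at 48 h. The share called was 14.3% at each time, beside 7.46%, 16.2% and 11.5% of all tested genes at 12, 24 and 48 h. The medians of the 7 log2 fold changes over E8 were 0.26, 0.02 and -0.05. PLAT, tissue plasminogen activator, had 40.2 and 35.5 in E8, 122 at 12 h, 120.8 and 99.1 at 24 h, then 68.0 and 59.5 at 48 h. It rose at 12 h (1.67 ± 0.32, adjusted p = 0.0026) and 24 h (1.51 ± 0.26, adjusted p = 0.00066), and at 48 h was at 0.74 (adjusted p = 0.074). PLAU, urokinase, had 298 and 312 in E8, 394 at 12 h, 318 and 234 at 24 h, then 180.3 and 132 at 48 h, and fell by 0.98 at 48 h (adjusted p = 0.0032). The activator PLAT thus stayed above both E8 libraries at 48 h, when PLAU lay below them. The fall of PLAU was not called without the second 48 h library (-0.75, adjusted p = 0.083), and PLAU overlaps C10orf55.

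**Figure D4:**
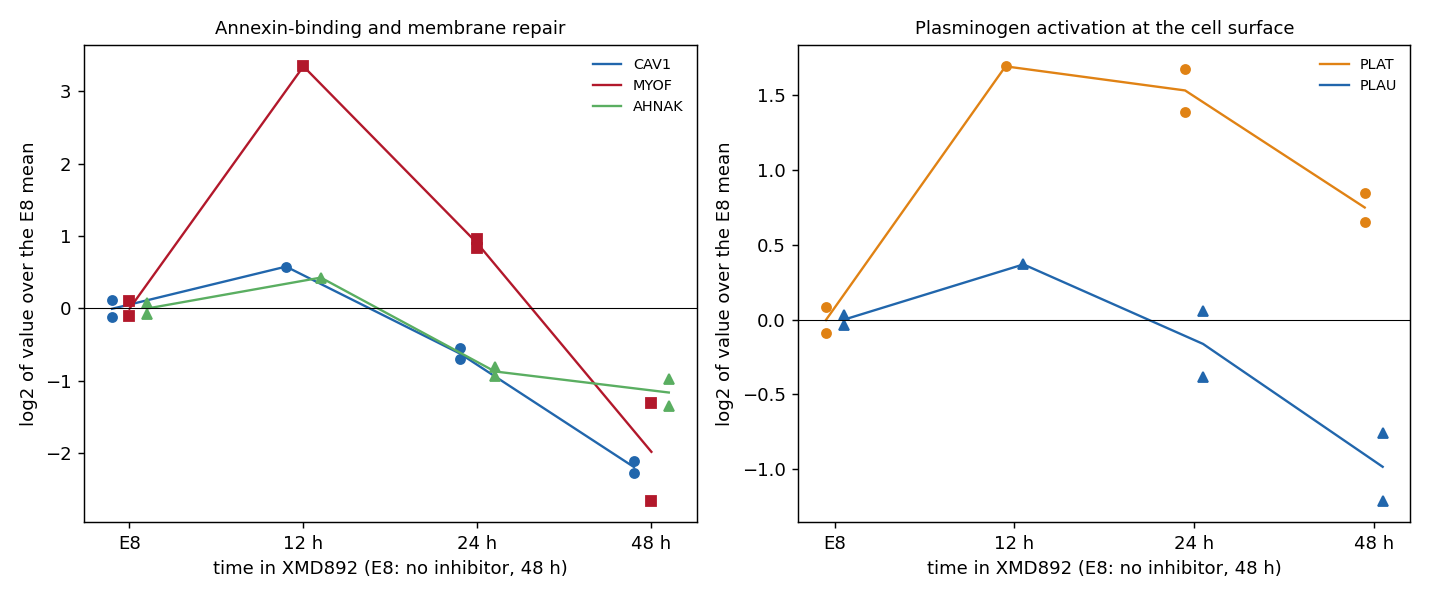
Log2 of the normalised read count over the E8 mean for genes of annexin binding and membrane repair (left, CAV1, MYOF and AHNAK) and of plasminogen activation (right, PLAT and PLAU). Points are libraries in E8 (48 h without inhibitor) and after 12, 24 and 48 h of XMD892 and lines join group means: all 5 genes are highest at 12 h, and at 48 h all but PLAT lie below E8. MYOF met the mean of 50 needed to be named only in the 12 h library.

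Among 5 other S100 genes tested, none was called at 48 h, S100A1 rose and S100A16 fell at 24 h, and S100A16 fell at 12 h. The shares called at 12, 24 and 48 h were 20%, 40% and 0%, beside 7.46%, 16.2% and 11.5% of all tested genes. S100A16, a widely expressed EF-hand protein, had 100.4 and 116 in E8, 38.6 at 12 h, 45.8 and 68.3 at 24 h, then 58.3 and 85.3 at 48 h. Its log2 fold change was -1.46 ± 0.35 at 12 h (adjusted p = 0.013) and -0.93 ± 0.29 at 24 h (adjusted p = 0.031), so its low point came at the time when S100A10 was highest. At 24 h S100A16 was not called without the first 24 h library (-0.65) or without either E8 library (-1.03 and -0.83). The 24 h call of S100A16 was also lost with DESeq2 (-0.93, adjusted p = 0.0715) and with GC removal without the first E8 library (-0.99). S100A1 shares exon bases with S100A13 on the other strand, so its reads are uncertain.

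In the ESCRT-III machinery, which pinches off damaged membrane, 11 genes were tested and 1 rose at each time. The share called was 9.09% at each, beside 7.46%, 16.2% and 11.5% of all tested genes at 12, 24 and 48 h. VPS4A, the ATPase that disassembles ESCRT-III, had 668 and 973 in E8, 1297 at 12 h, 1235 and 1175 at 24 h, then 1162 and 1141 at 48 h. It rose by 0.69 at 12 h (adjusted p = 0.047) and by 0.58 at 24 h (adjusted p = 0.024). CHMP3, an ESCRT-III subunit, had 272 and 256 in E8, 247 at 12 h, 259 and 260.0 at 24 h, then 373 and 401 at 48 h, and rose by 0.55 at 48 h alone (adjusted p = 0.0495). Without the first E8 library VPS4A was at 0.41 at 12 h and 0.31 at 24 h, without either 24 h library at 0.54 and 0.62 at 24 h, and without either 48 h library at 0.69 at 12 h, in none of them called, and its 12 h call was also lost with TMM, quantiles, edgeR, DESeq2 or only the groups compared. CHMP3 was not called without either 48 h library (0.60 and 0.49), either 24 h library or the second E8 library (0.50), nor with no filter, equal totals, quantiles, DESeq2, only the groups compared or the replicate block. Both genes share exon bases with neighbours, VPS4A with COG8 and CHMP3 with RNF103-CHMP3.

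Of 12 other proteins that bind membranes through calcium, 1 rose and 1 fell at 24 h and at 48 h, and none was called at 12 h. The share called was 16.7% at 24 h and at 48 h, beside 16.2% and 11.5% of all tested genes. The 2 called genes were copines, which like annexins bind phospholipid when calcium rises. CPNE7 had 342 and 383 in E8, 228 at 12 h, 181 and 189 at 24 h, then 107 and 88.3 at 48 h, and fell by 0.96 at 24 h (adjusted p = 0.0025) and by 1.89 at 48 h (adjusted p = 1.4e-06). CPNE1 had 1819 and 1940.1 in E8, 2458 at 12 h, 2947 and 2791 at 24 h, then 2780 and 2626 at 48 h, and rose by 0.61 at 24 h (adjusted p = 0.0056) and by 0.52 at 48 h (adjusted p = 0.018). CPNE1 was not called at 48 h without the first (0.48) or second (0.56) 48 h library, nor at 24 h without the first 24 h library (0.57), and it shares exon bases with RBM12. Of 5 genes of annexin A1 receptors and phospholipase A2, only PLA2G6, a calcium-independent phospholipase A2, was tested. It had 121 and 166 in E8, 164 at 12 h, 206 and 214 at 24 h, then 337 and 296 at 48 h, and rose by 1.15 ± 0.20 at 48 h (adjusted p = 0.00078). It shares exon bases with the antisense gene AL022322.2.

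Beside the 12 h values of the members stands COL1A1, the fibroblast marker and collagen chain, with 481 and 589 in E8, 1534 at 12 h, 882 and 851 at 24 h, then 361 and 324 at 48 h, which rose at 12 h (1.53 ± 0.20, adjusted p = 5.3e-05) and at 24 h (0.70 ± 0.16, adjusted p = 0.0064) and fell at 48 h (-0.64 ± 0.16, adjusted p = 0.014). The other fibroblast and stroma markers tested did not share that course: COL1A2 was at -0.19, 0.11 and 0.32 over E8 at 12, 24 and 48 h and THY1 at -0.44, 0.05 and 0.09, none called. PDGFRB was at -0.95 at 12 h (adjusted p = 0.21) and fell at 24 h (-1.43, adjusted p = 0.011) and 48 h (-1.35, adjusted p = 0.018). SOX1, an early neuroectoderm factor, had 33.2 and 48.8 in E8, 45.1 at 12 h, 43.7 and 44.0 at 24 h, then 79.9 and 111 at 48 h, and rose at 48 h (1.21 ± 0.31, adjusted p = 0.012). NANOG, a pluripotency factor, was lower at 12 h (-1.02, adjusted p = 0.0010), 24 h (-0.63, adjusted p = 0.0057) and 48 h (-1.16, adjusted p = 1.6e-05). ZIC1, the other neuroectoderm marker tested, was at -0.45, -0.22 and -0.10 at 12, 24 and 48 h, not called. NANOG was 1 of 8 pluripotency markers tested, of which 7, 6 and 7 were not called at these times. At 48 h 2 of the 8 lay above E8 and 6 below. GATA2, of trophoblast and amnion (-2.17, -4.46 and -3.34), and MIXL1, the 1 mesoderm marker of 4 tested that was called (-2.90, -1.89 and -2.04), fell further. GATA2 held 130 and 178 reads in E8, 26 at 12 h, 2 and 11 at 24 h, then 12 and 11 at 48 h. With so few reads under XMD892 the size of its fall is uncertain. The part of these markers in the members' changes was not tested. Without the 12 h library, 2 members were called at 24 h and 3 at 48 h, as with it, while the 12 h values themselves rest on that library alone.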

How the data were processed

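Per the labels' protocols, RNA was collected in RNAiso Plus, poly(A) RNA was selected on oligo(dT) beads and libraries were read as pairs on an Illumina NextSeq. Per the submitters' processing notes, the build was hg38 and the tools were DESeq2 1.26.0, featureCounts 1.5.3, STAR and Trimmomatic 0.36; their roles, the gene annotation, strandedness and filters are not given in the sources used here. The values the authors deposited are a signal per gene, read counts divided by 1 factor per library: divided by each library's smallest step, 100% lay within 0.1 of a whole number, so reads could be recovered. Libraries held 18528689 to 24148186 reads in listed genes. A further 2 columns, named for XMD at 12 h, could be tied to no sample and were left unused.

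Genes with a mean of 10 or more (16351) were fitted with limma 3.58.1 (R 4.3.3) on log2 of the value plus 1, 1 mean per group over all 7 libraries, with a trended prior variance. Residual degrees of freedom were 3 and prior ones 18.4. Calls are at a Benjamini-Hochberg adjusted p under 0.05. The lone 12 h library, or the lone library left when another is dropped, is assumed to vary like the others. Tested on simulated data for 48 h against E8 (16351 genes, 200 changed), the fit called 80% of 2-fold and 19% of 1.5-fold changes, so changes near 1.5-fold were often missed there. The simulation gave all genes 1 dispersion and no trend along GC content, so these rates need not hold for a given member. Likeness is the root mean square difference of centred log2 profiles. Loci come from GENCODE 29 on GRCh38 and promoter windows from RefSeq on GRCh38.p14. The members and gene lists were chosen with earlier results of these data known. A gene of the pathway lists is not reported here and stands in none of their counts. The pathway genes named are, per list, up to 3 called at 24 or 48 h against E8 with the largest log2 fold change and a mean of 50 or more in some group.

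Alternatives were pseudocounts of 0.5 and 5, no filter or a mean of 50, TMM, equal totals or quantiles, edgeR 4.0.16 and DESeq2 1.42.0 on recovered reads, robust moderation, only the groups compared, replicate number as a block, removal of the trend along transcript GC content (loess span 0.3) and leaving out each library. The fit without the 12 h library and GC removal without either E8 library were added after seeing the data.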

Additional observations from a re-analysis of the deposited data

Results flagged for a closer look

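The values of ANXA1 and ANXA3 against E8 differed between successive times of XMD892. The genes were chosen with these values known, so the differences are given as descriptions with no test. ANXA1 differed by -3.58 ± 0.63 (log2, SE) at 24 h against 12 h and by -3.68 ± 0.51 at 48 h against 24 h. ANXA3 differed by -1.72 ± 0.26 at 24 h against 12 h and by -0.97 ± 0.22 at 48 h against 24 h. Every library of the later time lay below every library of the earlier one for both genes. The 12 h group is 1 library, and ANXA1 rests on 2 reads at 48 h.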

How the results depend on the processing

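All 14 called member changes kept their sign in every alternative run and 7 were called in all of them. For the named pathway genes, 24 of 24 called changes kept their sign and 14 were called in every alternative. Of the 36 member changes not called, 7 took the other sign in at least 1 alternative: ANXA2 at 48 h, ANXA6 at 12 and 24 h and ANXA11 at 24 h against E8, ANXA7 and ANXA11 at 48 h against 24 h, and ANXA6 at 24 h against 12 h. Replicate numbers did not pair the libraries (correlations of replicate differences -0.0355, -0.0481 and -0.0706). With the replicate block 2 members were called at 48 h against E8, in place of 3, and 5 pathway genes at 48 h against 24 h, in place of 3. The block called 12% and 1.77% of all tested genes there, in place of 11.5% and 1.2%.

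Counts of members called moved as follows, and the cause was not tested. The share called over all tested genes also moved with the setting and with the library left out. At 48 h and at 24 h against E8, that share rose above the full fit's without the second E8 library. It fell below the full fit's without the first E8 library or without either XMD892 library of the comparison. Counts of members, and of the pathway genes below, with a library left out are thus not results about these genes alone. In a fit of only the groups compared, 1 was called at 48 h against E8, 3 at 12 h against E8 and 4 at 24 h against 12 h, where the full fit gave 3, 5 and 2. Of all tested genes, that fit called 12.2%, 4.92% and 8.91%, where the full fit called 11.5%, 7.46% and 0.391%. With the GC trend removed, 6 were called at 48 h and 4 at 24 h against E8 (full fit 3 and 2). GC removal also raised the share of all tested genes called, to 20.3% and 21.4% (full fit 11.5% and 16.2%). Leaving out 1 library, also with GC removal, gave 2 to 6 at 48 h against E8, 0 to 4 at 24 h against E8, 5 to 6 at 12 h against E8, 1 to 4 at 48 h against 24 h and 2 to 4 at 24 h against 12 h.

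Of the 50 pathway genes, only the groups compared gave 7 at 48 h against 24 h and 6 at 24 h against 12 h (full fit 3 and 2). Over all tested genes that setting gave 6.38% and 8.91% (full fit 1.2% and 0.391%). DESeq2 gave 4 at 24 h against 12 h, and 0.768% over all tested genes. GC removal gave 15 at 48 h and 12 at 12 h against E8 and 6 at 48 h against 24 h (full fit 9, 6 and 3). Over all tested genes it gave 20.3%, 16.2% and 2.28% (full fit 11.5%, 7.46% and 1.2%). Leaving out 1 library gave 4 to 13 at 48 h (up to 16 with GC removal), 6 to 13 at 24 h (up to 14 with GC removal) and 4 to 10 at 12 h against E8, 2 to 7 at 48 h against 24 h and 2 to 6 at 24 h against 12 h. ANXA1 at 48 h against E8 ranged from -3.43 to -1.41 with the test and added count. Depth limits ANXA1 and MYOF at 48 h, where few reads were counted.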
